A study of Mus musculus with 8 samples.

Results

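The genes that build ribosomes in the nucleolus were compared between bigenic mice, which express a mislocalized human TDP-43 in forebrain neurons, and nontransgenic mice. Members were taken by gene symbol alone: the Nop, Nol, Utp, Rrp, Noc and Polr1 series, 6 WD repeat genes (Wdr12, Wdr36, Wdr43, Wdr46, Wdr74 and Wdr75) and a list of named factors such as Ncl, Npm1, Ubtf, Dkc1 and Pes1. The rule found 69 genes of the 10601 in the table of symbols, and all 69 were among the 10588 genes tested. Fbl, which the rule also names, was not analysed here.

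RNA sequencing after poly(A)+ selection was performed on the right cortex of 4 bigenic and 4 nontransgenic C57BL/6 mice. Bigenic mice carried Camk2a-tTa, a tetracycline transactivator under a promoter active in forebrain neurons, together with tetO-ΔNLS-hTDP-43, a human TDP-43 whose nuclear localization signal is disabled. Nontransgenic mice from the same cross lacked both transgenes, so the effect of the transactivator and that of TDP-43 cannot be told apart. Both groups were kept on doxycycline, which represses the transgene, until 28 days of age, and the cortex was taken 10 days after its removal. Each library holds a whole piece of cortex, so fewer cells of a type and less RNA per cell cannot be told apart. Below, the bigenic mice are called A to D and the nontransgenic mice E to H, in the order of the columns of the deposited table.

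Ribosome biogenesis begins when RNA polymerase I transcribes the ribosomal DNA repeats into a long precursor RNA. Small nucleolar ribonucleoproteins (snoRNPs) guide chemical modification of that precursor, the small subunit processome cuts out and folds the part that becomes the 40S subunit, and a separate set of factors assembles the 60S subunit. In neurons the nucleolus is large and prominent, and ribosome production is costly for the cell.

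The transcript of the transgene had 29375 to 41550 normalized counts in bigenic mice and 5 to 80 in nontransgenic mice, so every library matched its label. Column totals of the deposited table lay between 20.1 and 22.0 M normalized counts, and the steps between its values correspond to about 10.6 to 31.9 M reads on genes per mouse. Bigenic mouse B was the shallowest of the 8, with about 10.6 M reads. On the first principal component of all genes tested, which took 58.9% of the variance, mouse B scored 45.99 and the other bigenic mice between 12.8 and 15.1. Values without mouse B are therefore given where leaving it out changed a call or moved a value by over 1.5 times. The lowest value of any member was 79 normalized counts, above the 6.20 that 3 reads were worth in the shallowest library.

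Of the 69 members, 27 (39.1%) were upregulated in the bigenic mice and 1 (Nol4) was downregulated, with an adjusted p-value below 0.05 in limma. Over all 10588 genes tested, 20.5% were upregulated and 15.4% were downregulated. The remaining 41 members did not pass the threshold. At an unadjusted p-value below 0.05, 39 members were higher and 3 were lower, where 26.0% and 20.6% of all genes tested were. The median log2(fold change) of the members was 0.35, with quartiles of 0.11 and 0.51, beside a median of 0.03 over all genes tested. For 58 of the 69 members (84.1%) the mean was higher in the bigenic mice, which was so for 53.3% of all genes tested. Genes were kept where at least 1 mouse reached 10 RPM of its column total. The upregulated Polr1e, Wdr46 and Rrp9 reached it in bigenic mice only. With 10 RPM asked of every mouse, 60 members remained, of which 23 were upregulated and 1 was downregulated. Of the 8980 genes then tested, 1971 were upregulated and 1417 were downregulated.

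Most changes were small. Of the 27 upregulated members, 10 changed by at least 1.5-fold, and of these Rrp12 alone exceeded 2-fold. Of the 2167 upregulated genes among all 10588 tested, 749 changed by at least 1.5-fold and 121 by at least 2-fold. The log2(fold changes) reached from -0.76 for Nop10, which did not pass the test, to 1.04 for Rrp12. In 34 members all 4 bigenic mice lay above all 4 nontransgenic mice, and these include all 27 that were upregulated. Such a separation was found in 22.3% of all genes tested. One member, Nol4, was separated in the other direction, which 16.7% of all genes were.

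**Figure D1:**
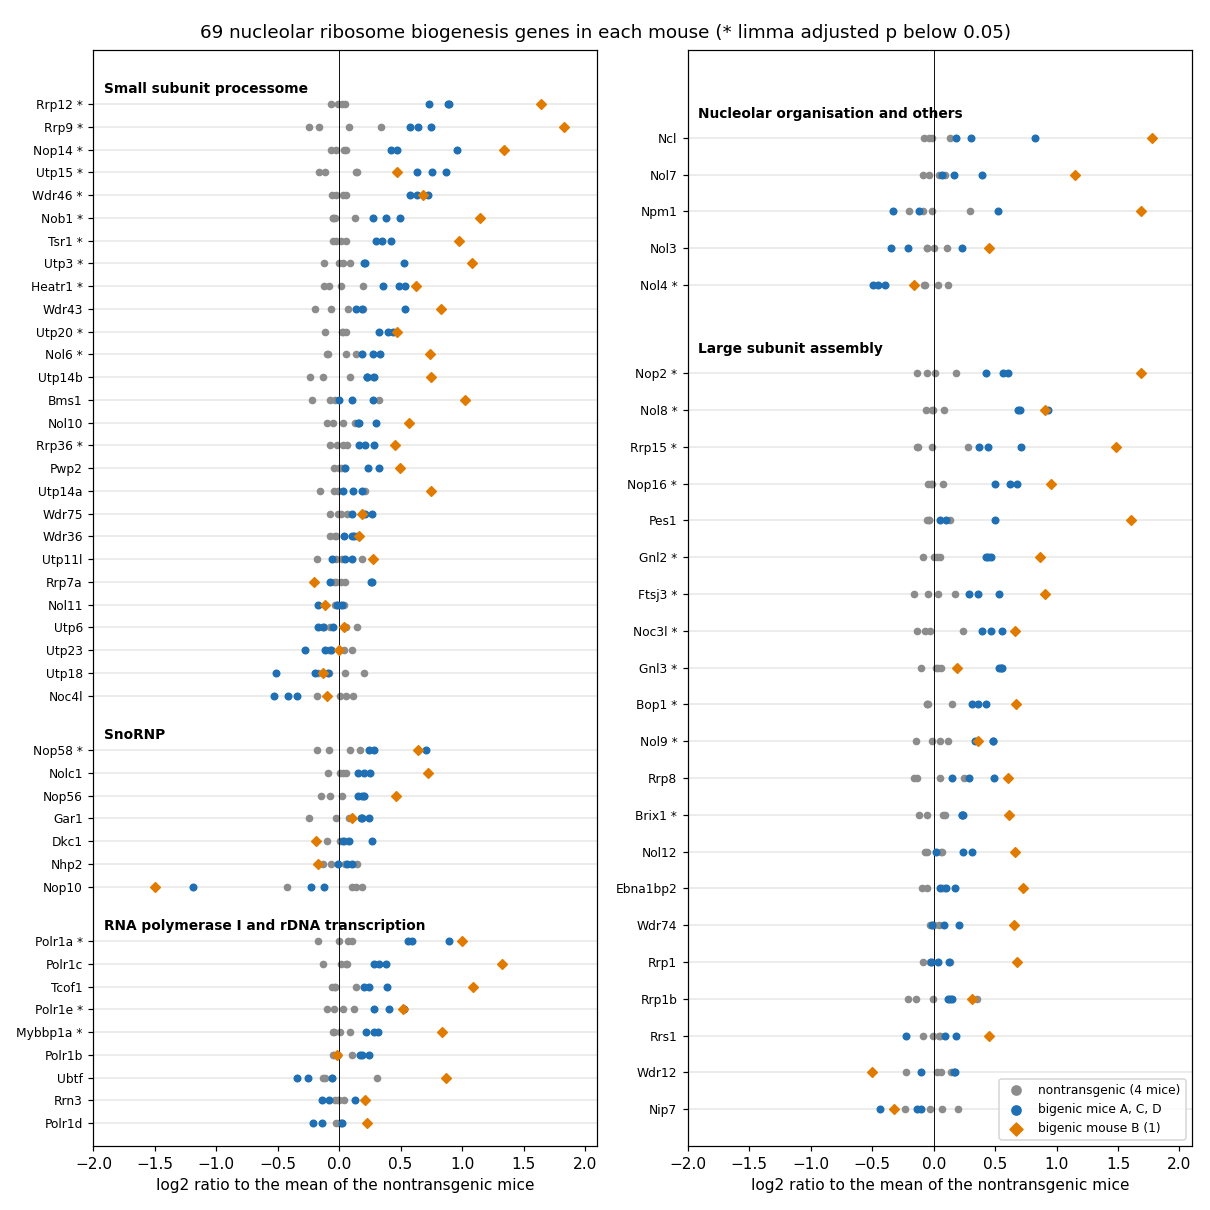
Log2 ratio of each member to the mean of the nontransgenic mice (x axis), 1 point per mouse, by role class; grey points are nontransgenic mice, blue points bigenic mice A, C and D, the orange diamond bigenic mouse B, and an asterisk marks a limma adjusted p-value below 0.05. In the 27 upregulated members every bigenic point lies to the right of every nontransgenic point, and the diamond is often far to the right of the other bigenic mice.

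Most members share a pathway, and their promoters were read from RefSeq (build GRCm38.p6). Each promoter covers the 250 bases before an annotated start and the 50 bases from that start on. Of the 69 members, 56 had an entry. Of the 23 upregulated members with an entry, 12 held at least 1 of the letter strings marked here and 11 held neither. The 6 shown were chosen among those 12, by smallest adjusted p-value in the polymerase I, small subunit and large subunit classes. Capitals mark CACGTG, the E-box letters that MYC and related factors recognize, and CCGGAAG or its reverse complement CTTCCGG, the letters of an ETS factor site. Both strands were searched.
Polr1e: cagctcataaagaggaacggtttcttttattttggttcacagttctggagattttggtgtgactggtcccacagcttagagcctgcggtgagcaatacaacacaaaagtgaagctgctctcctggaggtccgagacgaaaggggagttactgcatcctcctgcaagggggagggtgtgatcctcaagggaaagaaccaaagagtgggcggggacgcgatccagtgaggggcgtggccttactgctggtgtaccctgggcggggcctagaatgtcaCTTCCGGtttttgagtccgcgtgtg
Mybbp1a: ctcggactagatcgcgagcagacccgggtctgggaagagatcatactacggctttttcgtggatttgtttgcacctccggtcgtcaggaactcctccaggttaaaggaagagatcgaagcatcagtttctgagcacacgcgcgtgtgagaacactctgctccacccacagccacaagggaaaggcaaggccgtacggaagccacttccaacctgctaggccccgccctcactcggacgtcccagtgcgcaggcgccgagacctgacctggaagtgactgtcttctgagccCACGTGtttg
Noc3l: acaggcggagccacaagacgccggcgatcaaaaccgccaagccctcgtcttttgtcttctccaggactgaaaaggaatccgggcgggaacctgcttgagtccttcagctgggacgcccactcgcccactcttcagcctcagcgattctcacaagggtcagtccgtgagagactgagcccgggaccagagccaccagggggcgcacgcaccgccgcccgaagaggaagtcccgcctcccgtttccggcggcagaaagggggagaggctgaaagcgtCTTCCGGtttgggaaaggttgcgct
Nop2: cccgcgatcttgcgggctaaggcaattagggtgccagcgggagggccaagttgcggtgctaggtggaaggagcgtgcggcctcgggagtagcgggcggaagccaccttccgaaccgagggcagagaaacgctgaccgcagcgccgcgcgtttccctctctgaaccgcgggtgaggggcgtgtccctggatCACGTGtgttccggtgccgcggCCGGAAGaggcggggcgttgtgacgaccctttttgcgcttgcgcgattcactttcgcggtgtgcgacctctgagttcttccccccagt
Wdr46: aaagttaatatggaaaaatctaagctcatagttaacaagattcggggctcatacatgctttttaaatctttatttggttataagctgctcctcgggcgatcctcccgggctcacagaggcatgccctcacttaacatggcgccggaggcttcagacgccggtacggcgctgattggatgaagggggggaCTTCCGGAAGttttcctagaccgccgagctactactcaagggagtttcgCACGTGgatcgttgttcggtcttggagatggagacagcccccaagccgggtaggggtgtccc
Utp20: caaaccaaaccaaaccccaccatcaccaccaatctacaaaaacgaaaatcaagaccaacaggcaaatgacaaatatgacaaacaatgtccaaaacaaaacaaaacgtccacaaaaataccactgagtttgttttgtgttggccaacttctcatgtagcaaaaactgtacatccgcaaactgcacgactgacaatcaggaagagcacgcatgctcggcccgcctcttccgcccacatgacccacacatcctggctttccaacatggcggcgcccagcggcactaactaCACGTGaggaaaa

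The promoters of Polr1e (chr4:45018359-45018658, plus strand) and Noc3l (chr19:38819188-38819487, minus strand) each held an ETS match that began at base 26, counting the start base as the first. Mybbp1a (chr11:72441077-72441376, plus strand) and Utp20 (chr10:88826765-88827064, minus strand) each held an E-box, which began at bases 41 and 38 by the same count. In Nop2 (chr6:125131633-125131932, plus strand) an E-box lay 60 bases before the start and an ETS match 38 bases before it. Wdr46 (chr17:33940473-33940772, plus strand) held an E-box 12 bases before the start and, further upstream, a palindrome read as 2 ETS matches that share 4 bases.

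Over the 56 members with a promoter entry, 12 (21.4%) held CACGTG and 24 (42.9%) held the ETS letters. Among all 17492 protein-coding genes with a promoter entry, expressed in cortex or not, the shares were 8.91% and 12.9%. A list of 108 other ribosome biogenesis genes, tested for expression or not, had 84 with an entry, and their shares were 21.4% and 44.0%. Older symbols were matched to current ones for the members only. These were 2 of 7 motifs searched, both strands each. The other 5 were held by 71.4% of the members and 49.2% of the protein-coding genes (GC box, GGGCGG), by 30.4% and 42.3% (CCAAT box, CCAAT), by 8.93% and 14.8% (TATA box, TATAAA), by 5.36% and 3.94% (NRF1, GCATGCGC) and by 1.79% and 3.57% (YY1, AAGATGGC). For the E-box and ETS letters, the shares were close in members that passed the test and in those that did not. CACGTG was found in 5 of the 23 upregulated members with an entry (21.7%) and in 7 of the 33 others (21.2%), and the ETS letters in 10 (43.5%) and 14 (42.4%). These are matches of letters, and no binding was measured.

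RNA polymerase I and the factors that load it on ribosomal DNA gave 9 members, of which 3 were upregulated (Polr1a, Polr1e and Mybbp1a) and none downregulated, with a median log2(fold change) of 0.41, or 0.27 without mouse B. At an unadjusted p-value below 0.05, 5 of the 9 were higher and none was lower (26.0% and 20.6% of all genes tested). Polr1a, the gene of the largest, catalytic subunit of the enzyme (uc009chv.2, mm9 chr6:71859047-71929350, plus strand), had 1497, 1611, 1213 and 1185 normalized counts in bigenic mice A to D. In nontransgenic mice E to H it had 863, 803, 847 and 711. The groups did not overlap, and the lowest bigenic mouse was well above the highest nontransgenic mouse. The log2(fold change) was 0.76 ± 0.12 (SE, n = 4 and 4; adjusted p = 0.00103), or 0.68 without mouse B (adjusted p = 0.000298).

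Polr1e, a smaller subunit that helps the enzyme to initiate and elongate, had 205, 242, 243 and 224 normalized counts in mice A to D and 183, 164, 172 and 157 in mice E to H. The groups were separate by a narrow margin, and the log2(fold change) was 0.43 ± 0.11 (adjusted p = 0.0153). Mybbp1a, a nucleolar protein that binds the transcription factor MYB and associates with polymerase I, had 1475, 2109, 1375 and 1441 against 1188, 1149, 1141 and 1256. All bigenic mice were higher, with mouse B far above the rest, and the log2(fold change) was 0.41 ± 0.13 (adjusted p = 0.0307), or 0.27 without mouse B (adjusted p = 0.00503). This call was lost when mouse E, F or G was left out, with adjusted p-values of 0.0698, 0.0794 and 0.0800.

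The other polymerase I genes did not pass the test with all 8 mice. Polr1c, a subunit shared with RNA polymerase III, had 353, 678, 330 and 338 against 247, 283, 273 and 281, and Tcof1, the treacle protein that holds polymerase I and its factors at the ribosomal DNA, had 620, 1115, 603 and 687 against 511, 503, 511 and 575. Both were separate between the groups, with mouse B far above the other bigenic mice, and both missed the threshold (adjusted p = 0.0564 and 0.0576). Without mouse B their log2(fold changes) were 0.33 (adjusted p = 0.0108) and 0.28 (adjusted p = 0.0159). Leaving out mouse C instead also brought both past the threshold, Polr1c at 0.67 (adjusted p = 0.0446) and Tcof1 at 0.57 (adjusted p = 0.0391). Polr1b, the second largest subunit, had 472, 409, 465 and 491 against 401, 411, 446 and 400, with a log2(fold change) of 0.15 (adjusted p = 0.223), and of 0.20 without mouse B (adjusted p = 0.0499).

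Ubtf encodes UBF, which coats active ribosomal DNA, and Rrn3 encodes TIF-IA, which makes polymerase I able to initiate. Ubtf had 3584, 6827, 2942 and 3122 normalized counts in mice A to D and 3410, 3452, 3578 and 4607 in mice E to H. Mouse B had the highest value and mice C and D the lowest of all 8. Its log2(fold change) was 0.05 ± 0.24 (adjusted p = 0.878) with mouse B and -0.22 without it (adjusted p = 0.122), so even its sign depended on that mouse. Rrn3 lay between 1343 and 1714 in the bigenic mice and between 1446 and 1529 in the controls, and its log2(fold change) was 0.03 (adjusted p = 0.832; -0.03 without mouse B and -0.01 without mouse A). For Polr1d, shared with RNA polymerase III, the value was -0.03 (adjusted p = 0.865; -0.11 without mouse B), and only 66.1% of the 50-base windows of its exons occur once in the genome, which bears on a count of uniquely mapping reads.

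The snoRNP proteins and their partners gave 7 members, with a median log2(fold change) of 0.18 both with and without mouse B. Nop58 was the single upregulated member and none was downregulated. At an unadjusted p-value below 0.05, 3 were higher and 1 (Nop10) was lower, against the same 26.0% and 20.6% of all genes. Together with its paralogue Nop56, Nop58 forms the core of box C/D particles, which guide methylation of ribosomal RNA. Nop58 had 1520, 1454, 1132 and 1104 normalized counts in mice A to D and 990, 824, 880 and 1051 in mice E to H. The groups were separate, with mice C and D close to the controls. The log2(fold change) was 0.47 ± 0.13 (adjusted p = 0.0179), and the call was lost without mouse F (adjusted p = 0.0599) or mouse G (adjusted p = 0.0555). Nop56 had 727, 871, 721 and 706 against 573, 601, 642 and 729, which overlap, and the log2(fold change) was 0.25 (adjusted p = 0.0832; 0.0416 without mouse H). Nop56 and Nop58 each hold 4 annotated snoRNA genes, and the exons of Nop56 overlap 3 snoRNA genes on the same strand.

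The box H/ACA proteins, which guide pseudouridylation of ribosomal RNA, were not upregulated. Dkc1, the pseudouridine synthase, had 641, 469, 564 and 544 normalized counts against 535, 547, 555 and 499. Gar1 had 396, 376, 414 and 398 against 295, 344, 370 and 397. The groups overlapped in both, with log2(fold changes) of 0.05 (adjusted p = 0.743; -0.03 without mouse A and 0.12 without mouse B) and 0.18 (adjusted p = 0.209), and Nhp2 stood at 0.997-fold (adjusted p = 0.979), or 0.05 on the log2 scale without mouse B.

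Nop10, the smallest of the H/ACA proteins, had the lowest log2(fold change) of all members. Its values were 98, 79, 207 and 192 normalized counts in mice A to D and 256, 242, 248 and 168 in mice E to H. Mice A and B were far below the rest, and mouse H lay below mice C and D, so the groups overlapped. On the log2 scale the difference was -0.76 ± 0.31 (adjusted p = 0.0775). Mice A and B also had the fewest reads, about 15.2 and 10.6 M, whose part in these values was not tested. Leaving out mouse C (-0.97, adjusted p = 0.0319) or mouse D (-0.94, adjusted p = 0.0497) brought it past the threshold, and without mouse B it was -0.52 (adjusted p = 0.110). Nolc1, the Nopp140 protein that escorts snoRNPs through the nucleolus and the Cajal bodies, had 1523, 2188, 1479 and 1578 against 1359, 1247, 1332 and 1376. The groups were separate, with mouse B far above the others, and the log2(fold change) was 0.33 (adjusted p = 0.0571) with all mice and 0.20 (adjusted p = 0.0223) without mouse B. Leaving out mouse C also brought it past the threshold (0.39, adjusted p = 0.0451).

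The small subunit processome was the largest class, with 27 members, of which 12 were upregulated and none downregulated. Its median log2(fold change) was 0.35, and 0.22 without mouse B. At an unadjusted p-value below 0.05, 17 of the 27 were higher and 1 (Noc4l) was lower (26.0% and 20.6% of all genes tested). Rrp12, which is needed to export and mature the pre-40S particle, had 1557, 2614, 1391 and 1548 normalized counts in mice A to D and 833, 867, 799 and 851 in mice E to H. Every bigenic mouse was far above every control and mouse B was highest. Its log2(fold change) was 1.04 ± 0.17 (adjusted p = 0.00158), the largest rise among the members, and it was 0.84 without mouse B (adjusted p = 7.25e-06).

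Wdr46, a scaffold of the processome, and Utp15, a part of its first-binding t-UTP complex, had the smallest adjusted p-values of the class. Wdr46 had 288, 298, 276 and 307 normalized counts against 178, 192, 189 and 182, so both groups were tight and far apart. No nontransgenic mouse reached the filter of 10 RPM for this gene. Its log2(fold change) was 0.65 ± 0.10 (adjusted p = 0.000818), and it was 0.64 without mouse B. Utp15 had 1348, 1206, 1470 and 1584 against 959, 776, 803 and 954. Here mouse B was the lowest of the bigenic mice, though still above all controls, and the log2(fold change) of 0.68 ± 0.11 (adjusted p = 0.00139) became 0.75 without it.

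The large scaffold proteins Heatr1, of the t-UTP complex, and Utp20 were both upregulated. Heatr1 had 1159, 1398, 1270 and 1309 normalized counts against 912, 855, 831 and 1032, and Utp20 had 1208, 1332, 1266 and 1303 against 977, 985, 891 and 1003. The groups were separate in both, and the log2(fold changes) were 0.50 ± 0.09 (adjusted p = 0.00284) and 0.41 ± 0.07 (adjusted p = 0.00244). Rrp9, the U3 snoRNP protein, had 266, 565, 236 and 248 against 133, 141, 167 and 200, and Nop14 had 1043, 1357, 744 and 717 against 558, 512, 550 and 527. All bigenic mice were above all controls, and in both genes mouse B was highest. Rrp9 had a log2(fold change) of 0.95 ± 0.27 (adjusted p = 0.0207), which was 0.66 without mouse B (adjusted p = 0.00418), and its call was lost without mouse E (adjusted p = 0.0627) or mouse F (adjusted p = 0.0602). Nop14 had a log2(fold change) of 0.80 ± 0.18 (adjusted p = 0.00803), and 144 bases of its exons overlap Gm15522 on the other strand.

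The other upregulated members of the class were Tsr1 (log2(fold change) 0.51), Nob1 (0.57), Nol6 (0.38), Rrp36 (0.28) and Utp3 (0.51, or 0.32 without mouse B). Tsr1 and Nob1 act late, in the cytoplasmic maturation of the 40S subunit, and Nob1 makes the final cut of 18S ribosomal RNA. Exons of Tsr1 overlap those of Srr on the other strand over 1240 bases. The call of Nob1 was lost without mouse E, F or G (adjusted p = 0.0649 to 0.0662), and that of Nol6 without any of these or mouse A (0.0527 to 0.0919). Utp3 lost its call without mouse A, E, F, G or H (adjusted p = 0.0699 to 0.118), and Rrp36 without mouse A, D, E, F, G or H (0.0638 to 0.0954).

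Bms1, a GTPase of the processome, had 1558, 2622, 1389 and 1292 normalized counts against 1261, 1108, 1228 and 1619 and did not pass the test (log2(fold change) 0.35 ± 0.21, adjusted p = 0.217; 0.13 without mouse B). Mouse H was above all bigenic mice but mouse B. Pwp2, Nol10, Wdr43, Wdr75 and Utp14b lay between 0.19 and 0.42, with adjusted p-values between 0.0517 and 0.0765, and between 0.20 and 0.29 without mouse B. Of these 5 genes all but Nol10 passed the threshold in at least 1 fit that left out a mouse. Exons of Utp14b overlap those of Acsl3 on the same strand over 206 bases. For Utp14a, Wdr36, Utp23, Nol11, Utp6, Utp11l, Rrp7a and Utp18 the log2(fold changes) lay between -0.23 and 0.27, and between -0.27 and 0.15 without mouse B. Noc4l had 197, 234, 173 and 187 against 271, 260, 252 and 221, with only mouse B inside the range of the controls. Its log2(fold change) was -0.35 (adjusted p = 0.0554), and it passed the threshold without mouse B (-0.43, adjusted p = 0.00771) or mouse H (-0.41, adjusted p = 0.0453).

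**Figure D2:**
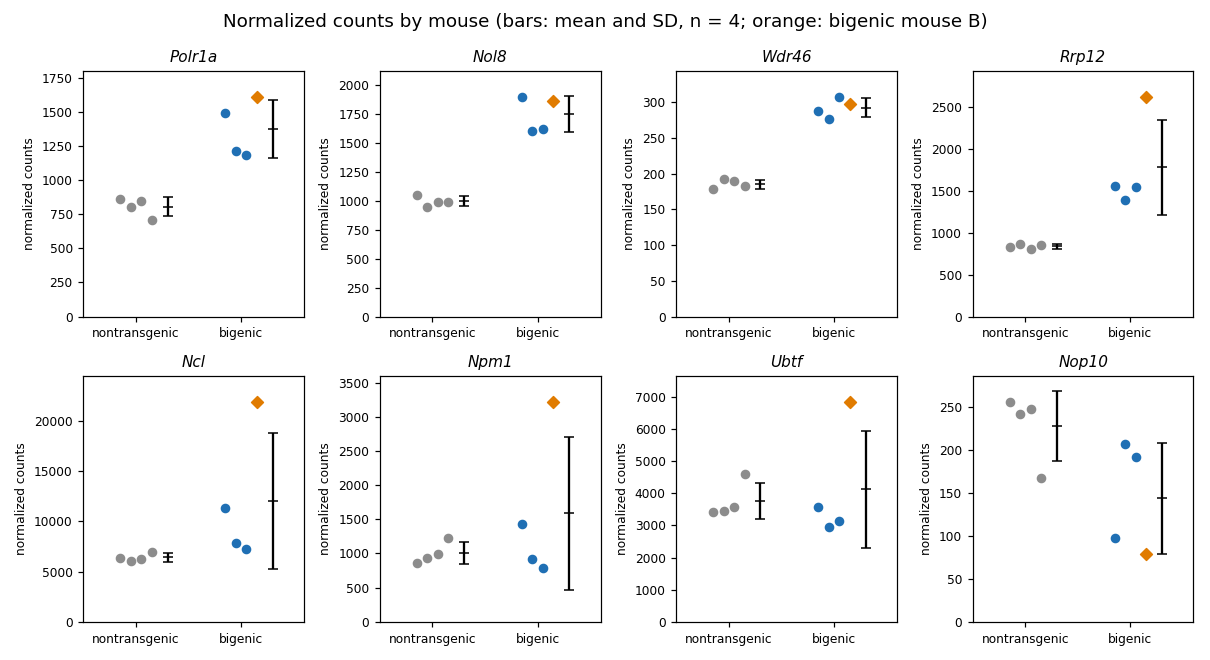
Normalized counts (y axis, from 0) of 8 members in each mouse, grey for nontransgenic, blue for bigenic mice A, C and D and orange for bigenic mouse B, with the mean and SD of each group of 4 beside the points. Polr1a, Nol8, Wdr46 and Rrp12 separate the groups, whereas in Ncl, Npm1 and Ubtf mouse B (21878, 3212 and 6827) stands far above the other bigenic mice, and Nop10 is lowest in mice A and B.

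Factors of the large subunit gave 21 members, of which 11 were upregulated and none downregulated. The median log2(fold change) was 0.42, and 0.31 without mouse B. At an unadjusted p-value below 0.05, 13 were higher and none was lower, beside 26.0% and 20.6% of all genes. Nol8, a nucleolar RNA-binding protein, had 1898, 1867, 1606 and 1621 normalized counts in mice A to D and 1055, 951, 991 and 987 in mice E to H. The groups were far apart and mouse B did not stand out. The log2(fold change) was 0.81 ± 0.08 (adjusted p = 0.000122), the smallest adjusted p-value among the members, and it was 0.77 without mouse B.

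Nop16, a pre-60S factor, had 572, 784, 623 and 647 normalized counts against 401, 391, 399 and 426, with a log2(fold change) of 0.69 ± 0.10 (adjusted p = 0.000937). Gnl2, the nucleolar GTPase that acts before export of the 60S subunit, had 2378, 3137, 2308 and 2336 against 1755, 1621, 1719 and 1783, with 0.55 ± 0.10 (adjusted p = 0.00323). The groups were separate in both, and mouse B was the highest bigenic mouse. Nop2, the methyltransferase of 28S ribosomal RNA also known as p120, had 785, 1671, 694 and 763 against 520, 471, 498 and 585. Mouse B had more than any other mouse by a wide margin. On the log2 scale the difference was 0.82 ± 0.24 (adjusted p = 0.0249) with mouse B and 0.53 without it (adjusted p = 0.000733), and the call was lost without mouse E, F or G (adjusted p = 0.0596, 0.0691 and 0.0632).

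Pes1, Bop1 and Wdr12 form the PeBoW complex, which processes the precursor of 28S ribosomal RNA, and their genes are given side by side. Bop1 had 880, 1040, 813 and 838 normalized counts against 631, 630, 633 and 727, separate groups with a log2(fold change) of 0.44 ± 0.10 (adjusted p = 0.00665). Pes1 had 781, 1677, 590 and 572 against 530, 537, 537 and 603. Mice C and D lay below mouse H, and the log2(fold change) of 0.56 ± 0.29 (adjusted p = 0.152) was 0.22 without mouse B (adjusted p = 0.125). Of the 50-base windows in the exons of Pes1, 76.0% occur once in the genome. Wdr12 had 674, 511, 810 and 815 against 798, 737, 754 and 617, overlapping groups in which mouse B was lowest. Its log2(fold change) was -0.07 (adjusted p = 0.754) with mouse B and 0.08 without it (adjusted p = 0.559). Whether these genes differ from each other in response was not tested.

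Gnl3, which encodes nucleostemin, a GTPase abundant in the nucleoli of stem cells and dividing cells, had 946, 732, 930 and 938 normalized counts against 658, 598, 650 and 669. Mouse B was the lowest bigenic mouse, yet above all controls. Its log2(fold change) was 0.45 ± 0.10 (adjusted p = 0.00624), and 0.54 without mouse B (adjusted p = 0.000102). Gnl3 holds 3 annotated snoRNA genes. The other upregulated members of the class were Noc3l (0.52), Nol9 (0.42), Ftsj3 (0.52), Rrp15 (0.75) and Brix1 (0.33). Rrp15 lost its call without mouse A, E, F or G (adjusted p = 0.0542 to 0.0778), and Brix1 without mouse E, F or G (0.0591 to 0.103). Of those that did not pass, Rrp8, Nol12, Ebna1bp2, Wdr74, Rrp1, Rrp1b and Rrs1 lay between 0.12 and 0.38, or between 0.02 and 0.31 without mouse B, and Nip7 at -0.25 (adjusted p = 0.117). Nol12 passed the threshold without mouse C (0.40, adjusted p = 0.0367), and Rrp8 without mouse D (0.46, adjusted p = 0.0474) or mouse H (0.46, adjusted p = 0.0397).

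The last 5 members were placed in a class of nucleolar organisation and others. Ncl encodes nucleolin, an abundant protein that binds ribosomal RNA and chromatin. It had 11309, 21878, 7890 and 7241 normalized counts in mice A to D and 6333, 6069, 6241 and 7002 in mice E to H. All bigenic mice were above all controls, mouse D by a small margin and mouse B by a wide one. The log2(fold change) was 0.77 ± 0.29 and missed the threshold (adjusted p = 0.0624), whereas without mouse B it was 0.43 and passed it (adjusted p = 0.0185). It also passed without mouse C (0.92, adjusted p = 0.0395) or mouse D (0.96, adjusted p = 0.0300). Ncl holds 3 annotated snoRNA genes.

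Npm1 encodes nucleophosmin, the protein of the granular component of the nucleolus. Its values were 1433, 3212, 920 and 791 against 868, 940, 990 and 1228. Mice C and D were within or below the range of the controls, mouse A was above it and mouse B was highest by far. On the log2 scale the difference was 0.44 ± 0.37 (adjusted p = 0.373) with all mice and 0.02 (adjusted p = 0.928) without mouse B. Of the 50-base windows in its exons, 71.7% occur once in the genome. Nol7 had 778, 1317, 664 and 621 against 610, 558, 631 and 577, with a log2(fold change) of 0.44 (adjusted p = 0.115), or 0.21 without mouse B (adjusted p = 0.0805).

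Nol3 and Nol4 carry nucleolar names but are not ribosome factors: Nol3 encodes ARC, an inhibitor of cell death, and Nol4 a nucleolar protein of brain with no known part in making ribosomes. Nol4 was the one downregulated member, with 2120, 2486, 2031 and 1973 normalized counts against 3020, 2646, 2847 and 2644. The groups were separate, and the log2(fold change) was -0.38 ± 0.09 (adjusted p = 0.0102), or -0.45 without mouse B (adjusted p = 0.000352). Nol3 was not called, with 473, 552, 318 and 349 against 404, 435, 389 and 390 (0.03, adjusted p = 0.899; -0.11 without mouse B and -0.04 without mouse A). Exons of Nol3 overlap those of 4931428F04Rik on the other strand over 1530 bases.

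The 8 mice were next compared by the median of the members in each, as log2 ratios to the mean of the nontransgenic mice. The medians were 0.28, 0.64, 0.19 and 0.21 in bigenic mice A to D and 0.01, -0.05, -0.02 and 0.05 in nontransgenic mice E to H. All bigenic mice lay above all controls, and mouse B was far above the other 3. The median over all genes tested lay between 0.01 and 0.05 in the bigenic mice. The members were highest of the 4 bigenic mice in mouse B for 51 of 69 genes (73.9%), against 43.1% of all genes tested. In 6 members mouse B exceeded the mean of the other bigenic mice by more than 2-fold, by 1.66 (Npm1), 1.39 (Pes1), 1.34 (Ncl), 1.18 (Rrp9), 1.16 (Nop2) and 1.09 (Ubtf) on the log2 scale. Over all 10588 genes tested, 210 did so. Mouse B lay more than 2-fold below that mean in 0 members and in 156 of all genes tested.

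**Figure D3:**
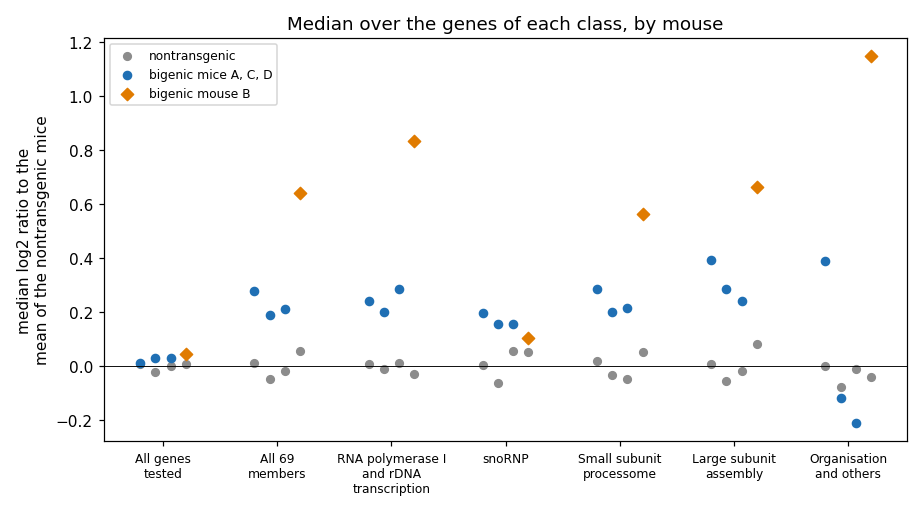
Median log2 ratio to the mean of the nontransgenic mice (y axis) over the genes of each class, 1 point per mouse (grey nontransgenic, blue bigenic mice A, C and D, orange bigenic mouse B). For all 69 members the bigenic mice lie between 0.19 and 0.64 and the nontransgenic mice between -0.05 and 0.05, mouse B is highest in every class except the snoRNPs and all bigenic mice exceed all controls in every class except the last.

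Without mouse B, 33 members were upregulated and 2 (Nol4 and Noc4l) were downregulated, where 25.3% and 20.2% of all genes tested were. All 27 members upregulated with mouse B were upregulated without it, and 6 more passed the threshold (Polr1b, Polr1c, Tcof1, Nolc1, Wdr75 and Ncl). The median log2(fold change) of the members was 0.21, beside 0.35 with mouse B. The change was thus larger at the median with mouse B, and fewer members passed the test. By class, 6 of 9 polymerase I genes, 2 of 7 snoRNP genes, 13 of 27 processome genes, 11 of 21 large subunit genes and 1 of the 5 others were upregulated without mouse B. In that last class the median was 0.44 with mouse B and 0.02 without it.

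**Figure D4:**
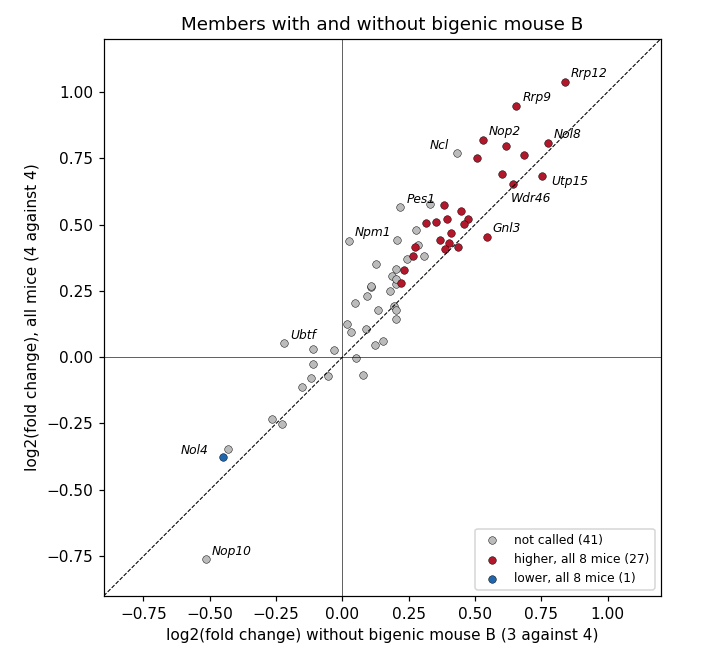
Log2(fold change) of each member with all 8 mice (y axis) against that without bigenic mouse B (x axis), red for upregulated, blue for downregulated and grey for not called with all mice, with the diagonal dashed. Most points lie above the diagonal, Npm1 (0.44 against 0.02), Pes1 (0.56 against 0.22) and Ncl (0.77 against 0.43) farthest, while Nol8 and Wdr46 lie close to it and Utp15 and Gnl3 below it.

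Of the 27 upregulated members, 17 passed the threshold in all 8 fits that each leave out 1 mouse, and none changed sign. The other 10 lost 35 calls over these fits, 30 of them where a nontransgenic mouse was left out. Without mouse F 17 members were upregulated, and without mouse E or G 18 were. Over all genes the upregulated count was 1605 without mouse E, 1512 without mouse F and 1541 without mouse G, compared with 2167 with all mice. How many of those 2167 genes passed in all 8 fits is not given here, so the 17 members have no background share beside them.

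Other features of the libraries moved with mouse B. Its deviation from the other bigenic mice correlated with the GC content of a gene over 10297 genes (Pearson r = 0.369, genes of 1 library that share its depth and are not independent) and hardly with gene length (r = -0.0117). The median GC content of the members was 49.3%, close to the 49.6% of all genes tested. With a trend on GC content and on gene length taken out of every mouse, 30 members were upregulated, 2 were downregulated and the median was 0.32. Of the 10297 genes tested in that fit, 2087 were upregulated and 1884 were downregulated. The sum of the neuron markers was 214526 normalized counts in mouse B, between 163820 and 169704 in the other bigenic mice and between 201842 and 220050 in the nontransgenic mice. The part of these differences in the members' values was not tested.

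Sums of the astrocyte, microglia and choroid plexus markers separated the groups, whereas those of the neuron, endothelium and oligodendrocyte markers overlapped. Over all genes tested, 20.5% were upregulated and 15.4% were downregulated. Of the neuron markers tested, 2 of 11 were upregulated and 5 were downregulated. Of the astrocyte markers 5 of 10 were downregulated and none was upregulated, and their summed normalized counts ranged from 137945 to 164271 in bigenic and from 173634 to 189388 in nontransgenic mice. Of the microglia markers 5 of 10 were downregulated, with sums between 6116 and 8135 against 8231 to 9539. Of the endothelium markers 1 of 9 was downregulated (6399 to 7463 against 7147 to 8075), and of the oligodendrocyte markers 1 of 10 was upregulated (65399 to 84902 against 64373 to 81359). Of the choroid plexus markers only 6 of 16 were tested and 5 of these were upregulated, with sums between 14275 and 29482 against 6591 to 8221, and lowest of the bigenic mice in mouse B. The defining choroid plexus genes Folr1, Kcne2 and Otx2 were not analysed here. The part of the cell makeup in the members' values was not tested.

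The rest of the pathway was described by 94 tested genes of ribosome biogenesis that the symbol rule does not take, among them the exosome, nucleolar helicases and export factors. Of these 35 (37.2%) were upregulated and 4 were downregulated, with a median log2(fold change) of 0.24 (0.17 without mouse B, with 37 and 5 called). Mdn1, the giant ATPase that remodels the pre-60S particle, had 7305, 8429, 7584 and 8047 normalized counts in mice A to D and 3412, 3358, 3142 and 4375 in mice E to H. Riok2, a kinase of the late pre-40S particle, had 1852, 1907, 1821 and 1881 against 1052, 775, 890 and 970. Cirh1a, the cirhin protein of the t-UTP complex, had 806, 776, 724 and 848 against 478, 450, 506 and 508. In all 3 the groups were far apart and mouse B did not stand out, and the log2(fold changes) were 1.14 ± 0.11 (adjusted p = 6.81e-05), 1.02 ± 0.10 (adjusted p = 7.45e-05) and 0.70 ± 0.08 (adjusted p = 0.000273).

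The downregulated genes of that list included Imp3, a protein of the U3 snoRNP, with 254, 192, 234 and 269 normalized counts against 350, 333, 354 and 322 (log2(fold change) -0.53 ± 0.12, adjusted p = 0.00760). Gnl3l, the paralogue of nucleostemin, had 4702, 4087, 4681 and 4680 against 6193, 5471, 5621 and 5579 (-0.33 ± 0.08, adjusted p = 0.00813), the direction opposite to Gnl3. In both genes the groups were separate and mouse B was lowest. Ddx5, a helicase with many roles beyond the ribosome, had 10599, 7728, 13205 and 11671 against 14774, 13543, 14761 and 14235 (-0.43 ± 0.14, adjusted p = 0.0380; -0.28 without mouse B, adjusted p = 0.0113). Its call was lost in the fits without mouse A (adjusted p = 0.0712), E (0.0910), F (0.0672), G (0.0911) and H (0.0714).

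The ribosome's own proteins, which are made in the cytoplasm and meet the precursor RNA in the nucleolus, are given beside them. Of 43 cytosolic ribosomal protein genes 12 (27.9%) were upregulated and 4 downregulated, with a median of 0.24. Many of these genes have processed pseudogenes, so unique mapping leaves their values uncertain. Without mouse B 19 were upregulated, 4 were downregulated and the median was 0.27. Of 68 mitochondrial ribosomal protein genes, whose ribosomes are not built in the nucleolus, 14 (20.6%) were upregulated and 3 downregulated, with a median of 0.06. Whether these groups differ from the members was not tested.

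**Figure D5:**
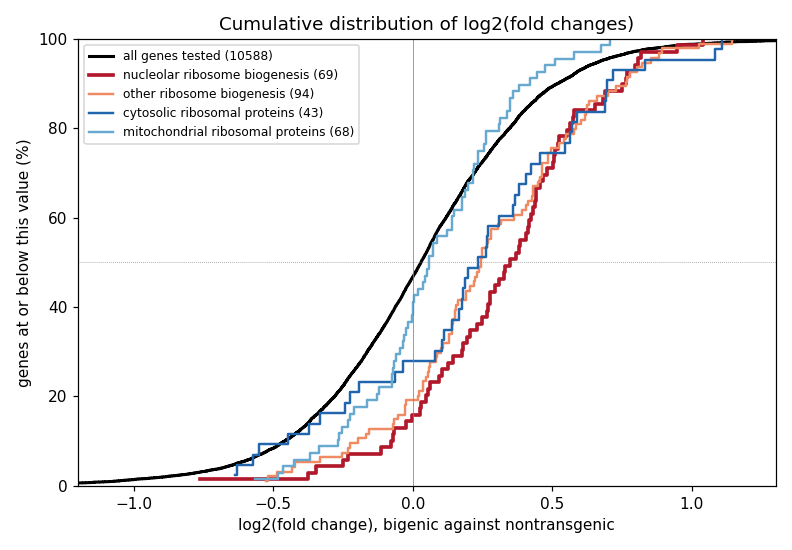
Share of genes (y axis, percent) at or below each log2(fold change), bigenic against nontransgenic (x axis), for all 10588 genes tested (black), the 69 members (red), 94 other ribosome biogenesis genes (orange), 43 cytosolic (dark blue) and 68 mitochondrial ribosomal protein genes (light blue). The curves cross 50% at 0.03, 0.35, 0.24, 0.24 and 0.06, in that order, so the red curve is farthest right at that level. The largest value was 1.04 in the members, 1.14 in the other ribosome biogenesis genes and 1.11 in the cytosolic ribosomal protein genes.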

How the data were processed

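The authors sequenced poly(A)+ RNA of the right cortex from 8 mice (4 bigenic, 4 nontransgenic) as single-end reads. Per the labels and the methods, adaptors were trimmed with cutadapt, reads were mapped to mm9 with Bowtie 0.12.7, uniquely mapping reads were counted on exons with bedtools and exons were merged into genes. Whether counting used the strand is not given in the sources used here. The deposited table holds 28662 transcripts in 8 columns, and its unit is treated as a score: whole numbers that the authors scaled per mouse in a way not given in the sources used here, called normalized counts in the text. A second deposited table holds the authors' own comparison (mean, fold change with its error, p-values and q-values), of which only the gene symbols were used.

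Genes were kept where 1 mouse or more reached 10 RPM of its column total. They were transformed as log2(normalized count + 1) and the groups compared by limma 3.58.1 (lmFit, then trended eBayes; R 4.3.3), with Benjamini-Hochberg adjustment over 10588 genes and a threshold of 0.05. Every log2(fold change) refers to these transformed values and is too small for genes with few reads. What 1 read is worth (0.648 to 2.07 normalized counts) was estimated from the steps between low values. It exceeds 1 in only 2 of the 8 columns, so raw reads could not be recovered for all mice and tests for counts were not run. Both scripts were tested on simulated data. Gene positions, GC content, overlaps and unique windows come from GENCODE on mm9, where 69 of 69 members matched. Promoters come from RefSeq on another build, GRCm38.p6. Python 3.11.15, numpy 2.4.6, pandas 2.3.3 and matplotlib 3.10.9 were used.

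The members, their role classes, the pathway list and the marker lists were chosen with earlier results of these data known. Genes named with full values are core genes of the pathway, the 3 members of each class with the lowest adjusted p-values, the 5 upregulated members with the largest rise among those with separate groups, every downregulated member, Nol3 and Nol4 (not ribosome factors), and in each direction the 3 genes of the pathway list with the lowest adjusted p-values. Other members were named to account for all 69, after their values were seen. Alternatives were pseudocounts of 10 and 0.1, no filter, a filter in every mouse, equal column totals, quantile normalization, array weights, a GC content and length trend removed, an adjusted p-value below 0.01, and leaving out each mouse.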

Additional observations from a re-analysis of the deposited data

Results flagged for a closer look

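In each group of 4 mice, the highest or lowest value was checked for a gap to its neighbour that takes up most of the range of the group (Dixon's criterion at the 95% level). Chance flags about 1 in 20 groups. Among the named genes, bigenic mouse B was the far highest bigenic mouse in Ubtf (6827 normalized counts), Tcof1 (1115), Nolc1 (2188), Nop56 (871), Nop2 (1671), Mybbp1a (2109), Gnl2 (3137), Rrp12 (2614) and Rrp9 (565), and the far lowest in Gnl3 (732) and Gnl3l (4087). Over all members, 15 of 69 (21.7%) had such a high value among the bigenic mice, all 15 in mouse B, where 9.97% of all genes tested had one.

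Among the nontransgenic mice, 5 of 69 members had a far highest mouse (7.25%, beside 4.40% of all genes tested). Of the named genes these were Ubtf (4607), Tcof1 (575), Pes1 (603) and Bop1 (727), and in Nop10 the lowest mouse was far below the others (168). All 5 of these values came from mouse H. In Ubtf and Tcof1 both groups were flagged.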

How the results depend on the processing

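The median log2(fold change) of the members lay between 0.21 and 0.40 when each mouse was left out in turn, lowest without bigenic mouse B, and between 0.23 and 0.35 under the other settings, so it kept its direction in each. The number of upregulated members was 27 with all mice, 17 to 33 with a mouse left out, 33 after rescaling every mouse to 1 total, 41 with array weights (which gave mouse B a weight of 0.0844) and 14 at an adjusted p-value below 0.01. The number downregulated was 1 to 2 with a mouse left out, 2 with the same total, 7 with array weights, 2 with the GC content and length trend removed and 0 at 0.01.

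Over all genes tested, array weights gave 3611 upregulated and 2844 downregulated genes, and an adjusted p-value below 0.01 gave 1195 and 862. Rescaling every mouse to the same total gave 2256 and 1511, and leaving out a mouse gave 1512 to 2683 upregulated genes. For the other ribosome biogenesis genes, leaving out a mouse gave 22 to 37 upregulated and 2 to 5 downregulated genes. The downregulated count of 4 was 2 without a filter, 2 with the filter in every mouse, 2 with the same total and 12 with array weights, and at 0.01 the counts were 19 and 2. Cytosolic ribosomal proteins gave 9 to 19 upregulated and 1 to 4 downregulated genes with a mouse left out, 26 upregulated with array weights, 2 downregulated without a filter and 1 downregulated at 0.01. Mitochondrial ribosomal proteins gave 9 to 19 and 1 to 7 with a mouse left out, 26 and 10 with array weights, 5 downregulated with quantile normalization, and 6 and 1 at 0.01.

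Among the genes named with full values, the sign turned for Rrn3, Ubtf, Npm1, Wdr12, Nol3 and Dkc1, none of them past the threshold with all mice. Of the other members, Polr1d (-0.11 to 0.037), Nhp2 (-0.048 to 0.052) and Rrp7a (-0.0072 to 0.152) turned with a mouse left out, and none of these was called either. Rrn3 was at -0.037 with quantile normalization, -0.10 with array weights and between -0.033 and 0.084 with a mouse left out. Ubtf was at -0.20 with array weights, past the threshold (adjusted p = 0.0478), -0.12 with the GC content and length trend removed and between -0.22 and 0.185 with a mouse left out. Npm1 was at -0.11 with array weights. Wdr12 was at 0.10 with array weights and between -0.146 and 0.078 with a mouse left out. Nol3 was at -0.24 with array weights, also past it (adjusted p = 0.0323), -0.044 with the trend removed and between -0.11 and 0.155 with a mouse left out, and Dkc1 lay between -0.026 and 0.124. The cause was not tested.

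No paired analysis was possible because the columns of the table carry no replicate numbers, so the replicate block was not run. edgeR and DESeq2 were not run, since the values are not raw counts.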
